A study of Mus musculus with 6 samples.

Results

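The IL-6 family genes examined here were 4 cytokine genes (Il6, Il11, Osm, Lif), 5 receptor genes (Il6st, Il6ra, Il11ra1, Osmr, Lifr) and the feedback gene Socs3. They were found by gene symbol in a table of 21899 genes measured by RNA sequencing of mouse colon. Each of the 10 symbols matched 1 row, and all 10 passed the filter on low counts that left 14553 genes for testing. One group, KO, held 3 libraries from mice lacking Adamts4, a gene for a secreted protease that cleaves proteoglycans. The other, WT, held 3 libraries from wild-type mice. Both groups had received 2.5% dextran sodium sulfate (DSS), which injures the colonic epithelium and causes colitis, for 7 days. The comparison asks how expression in the inflamed colon differs with and without Adamts4. Untreated mice were not analysed here, so no value below shows what DSS itself did. The labels and protocols at hand name no knockout allele, strain, litter or age, so genetic background and loss of Adamts4 cannot be told apart.

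Cytokines of the IL-6 family signal through a shared receptor chain, gp130, which Il6st encodes. Il6ra and Il11ra1 encode chains that bind IL-6 and IL-11 and hand them to gp130, whereas Osmr and Lifr encode chains that signal as partners of gp130 for oncostatin M (Osm) and leukemia inhibitory factor (Lif). The assembled receptors activate JAK kinases and the transcription factor STAT3. STAT3 induces Socs3, whose protein binds gp130 and shuts the signal off, so Socs3 RNA is commonly used as a readout of the pathway. In the injured gut the pathway is known for epithelial survival and regeneration as well as for inflammation.

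The libraries held 15786214 to 22932125 counts, and Adamts4 had 0 counts in each KO library and 900, 992 and 997 in WT 1, WT 2 and WT 3. Markers of colon epithelium were present at a mean of at least 246 CPM (counts scaled to library size) for each of 8 genes. Their sums were 25215 to 32262 CPM in KO and 17993 to 22871 CPM in WT, and Muc2 was the largest part. Of the 8, 1 had a lower mean in KO. Every KO library lay above every WT library for 1, Epcam, as in 1360 of 14553 genes tested. Muc2 itself overlapped, at 11203 to 22797 CPM in KO and 9170 to 13060 CPM in WT. Summed smooth muscle markers were 2482 to 2927 CPM in KO and 1483 to 2264 CPM in WT, with all 4 higher in mean in KO. The part of tissue make-up in the values below was not tested. KO 3 was far from the rest on the leading principal component of expression, with a score of 73.1 against -47.0 to 26.5 in the other 5 libraries. Its summed fibroblast markers were 636 CPM against 2125 to 4497 CPM in the others, and its endothelial markers 63.0 against 146 to 253 CPM. Mitochondrial genes made up 9.5% of counts in KO 3 and 7.66% in KO 2, against 4.03% to 6.05% in the others. Results that rest on KO 3 are therefore given without it as well. The libraries are numbered in the labels, which tie no library to a single mouse, so the spread behind each p-value may be partly technical.

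Across the family, Socs3 was the one member that fell in KO at an adjusted p below 0.05 in edgeR's quasi-likelihood test, and none rose. In that test 0.151% of all genes were called lower and 0.00687% higher. All 10 log2 fold changes (KO minus WT) were below 0, with a median of -1.38 against 0.03 over all genes tested. In 9 of the 10 members every KO library lay below every WT library, as it did in 10.2% of all genes. At an unadjusted p below 0.05, edgeR had 8 members lower, against 7.85% of all genes. DESeq2, a test with another model of the spread, called 6 members lower (Socs3, Il11, Il6, Osm, Lif and Il6ra), against 2.76% of all genes. The difference ran from a 7.76-fold lower mean for Il11 to 1.09-fold for Il11ra1. The single edgeR call was lost without KO 2, WT 1, WT 2 or WT 3, and without KO 3 Il11 was called in place of Socs3. The 6 DESeq2 calls became 2 (Il11 and Socs3) when KO 3 or WT 2 was left out, 3 when KO 2 or WT 3 was, and 4 when WT 1 was.

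**Figure D1:**
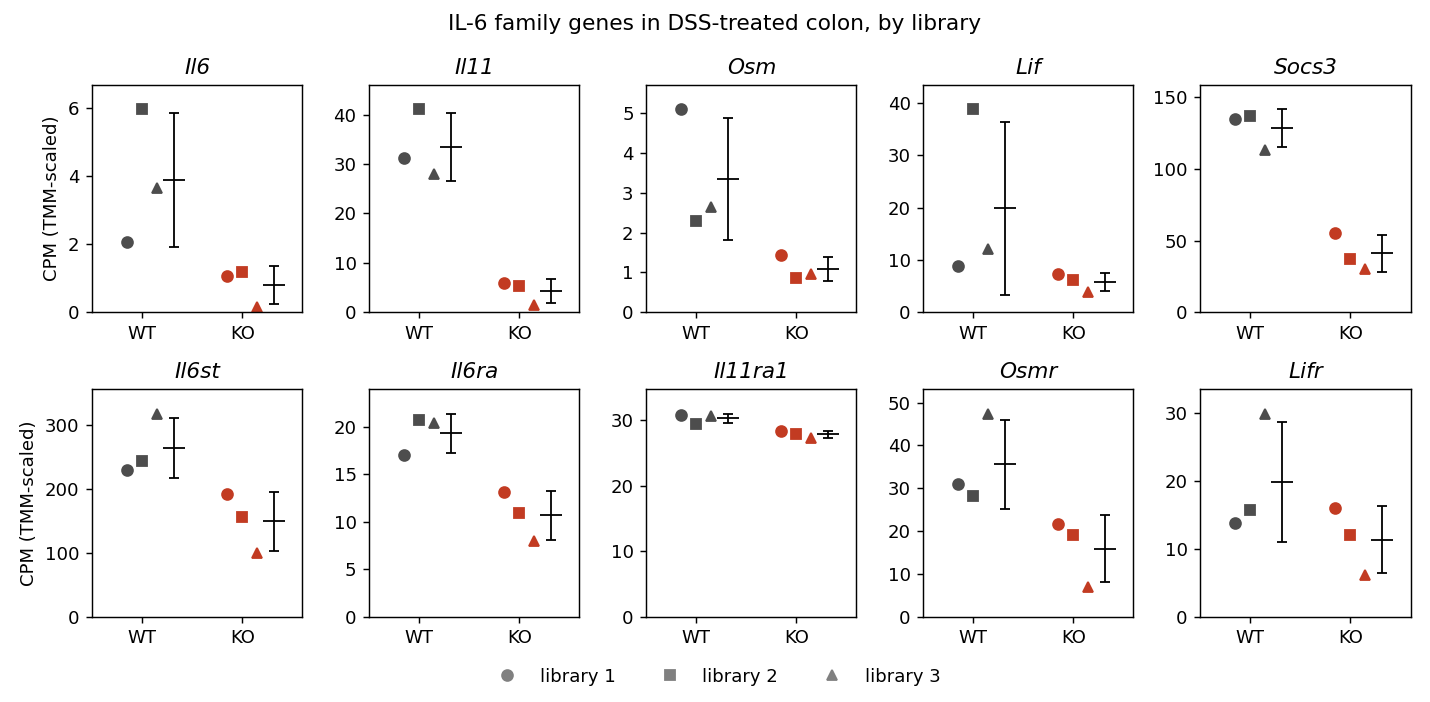
Level of each member in every library, in CPM scaled by TMM factors on axes that start at 0, with the group mean and SD as a bar to the right of each group's points. Every KO library lies below every WT library for each gene except Lifr, the gap is widest for Il11 and Socs3, and the Il11ra1 levels are nearly the same in all 6.

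Socs3 (chromosome 11, 117966079 to 117970047, minus strand, GRCm38) had 135, 137 and 113 CPM in WT 1, WT 2 and WT 3. In KO 1, KO 2 and KO 3 it had 55.2, 37.4 and 30.5 CPM. The groups did not overlap, and the lowest WT library lay 2.05-fold above the highest KO library. The mean was 128 ± 13.2 CPM in WT and 41.0 ± 12.8 CPM in KO (SD, n = 3), which is 68.0% lower. The log2 fold change was -1.64 ± 0.22 (SE), with a 95% interval of -2.16 to -1.13 and an edgeR adjusted p of 0.0495. Socs3 ranked 19 of 14553 genes by p. An exact two-sided permutation test over the 6 libraries gave p = 0.1, the smallest that 3 against 3 allows. Leaving out 1 library at a time moved the log2 fold change only between -1.92 and -1.47, while the edgeR adjusted p ran from 0.0201 to 0.237. DESeq2 called Socs3 lower in all 6 of its fits without 1 library.

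The Socs3 promoter is shown because STAT proteins bind sites of the form TTCNNNGAA, where N is any base. The sequence comes from RefSeq (GRCm38.p6) and holds the 250 bases before the transcript start, chr11:117969367-117969616 on the minus strand. This RefSeq start differs from the start of the gene span given above, and the window lies inside that span. The capitals mark the match to that motif, 154 bases before the start.
Socs3: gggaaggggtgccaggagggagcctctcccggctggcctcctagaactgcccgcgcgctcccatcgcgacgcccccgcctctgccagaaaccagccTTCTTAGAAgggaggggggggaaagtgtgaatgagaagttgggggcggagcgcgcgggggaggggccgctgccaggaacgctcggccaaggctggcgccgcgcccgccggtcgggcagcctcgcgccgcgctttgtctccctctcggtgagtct
Both strands were searched, and the motif is its own reverse complement. Of 32851 such RefSeq windows, 7.02% held it. Among the 9 members with a window (12 windows in all), Socs3 was the 1 that did. A match describes the letters and is not evidence of binding in these colons.

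Il11, a cytokine made mainly by stromal cells that acts on fibroblasts and epithelium, showed the largest difference in the family. It had 31.1, 41.1 and 27.9 CPM in WT 1, WT 2 and WT 3 and 5.96, 5.39 and 1.56 CPM in KO 1, KO 2 and KO 3. The groups were far apart, with the lowest WT library 4.68-fold above the highest KO library. The means were 33.4 ± 6.85 CPM in WT and 4.30 ± 2.39 CPM in KO (SD, n = 3). The log2 fold change was -2.96 ± 0.44 (SE), with a 95% interval of -3.98 to -1.93. Its edgeR adjusted p of 0.0595 missed the threshold, and DESeq2 gave 1.93e-10. KO 3 was the lowest library, and without it the log2 fold change was -2.55, with an edgeR adjusted p of 0.0493. Summed fibroblast markers overlapped between the groups (4044, 2302 and 636 CPM in KO 1, KO 2 and KO 3, 2959, 2125 and 4497 CPM in WT 1, WT 2 and WT 3), with all 8 lower in mean in KO. The collagen genes Col1a1, Col1a2 and Col3a1 made up most of these sums. Pdgfra, the receptor gene that marks fibroblasts, had 108, 91.6 and 32.6 CPM in KO 1, KO 2 and KO 3 and 173, 110.5 and 173 CPM in WT 1, WT 2 and WT 3, so that its groups did not overlap. Dcn and Pdpn did not overlap either, with KO the lower, which makes 3 of the 8, against 10.2% of all genes. Lum, Col1a1, Col1a2, Col3a1 and Thy1 overlapped, with Col1a1 at 787 CPM in KO 1 and 327 to 714 CPM in WT. The part of fibroblast content in the Il11 difference was not tested.

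Lif, a cytokine of stromal, epithelial and immune cells, had 8.77, 38.8 and 12.1 CPM in the 3 WT libraries in order of number and 7.40, 6.13 and 3.97 CPM in the KO libraries. WT 2 was far above the rest, and WT 1 lay just above KO 1. Lif had a log2 fold change of -1.77 ± 0.55 (SE, edgeR adjusted p = 0.248). Without WT 2 it was -0.83, and DESeq2, which called Lif with all libraries (adjusted p = 0.0147), gave 0.398. The size of the Lif difference therefore rested on WT 2. DESeq2 did not call Lif without KO 2 or KO 3 either, with adjusted p of 0.0972 and 0.455.

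Il6, the founding cytokine of the family, was low in every library. Its counts were 48, 117 and 65 in WT 1, WT 2 and WT 3 and 21, 19 and 3 in KO 1, KO 2 and KO 3. That is 3.89 ± 1.96 CPM in WT and 0.806 ± 0.560 CPM in KO (SD, n = 3). The groups did not overlap, and KO 3 had almost no Il6. On the log2 scale the difference was -2.27 ± 0.66 (SE), with a wide 95% interval of -3.78 to -0.75 (edgeR adjusted p = 0.220, DESeq2 0.0198). Without KO 3 it was -1.78. DESeq2 no longer called Il6 without KO 3, WT 2 or WT 3, with adjusted p of 0.0608, 0.376 and 0.151.

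Osm, which in the gut comes chiefly from neutrophils, monocytes and other leukocytes, had 119, 45 and 47 counts in WT 1, WT 2 and WT 3 and 28, 14 and 18 in the KO libraries. WT 1 was highest and the groups did not overlap. The means were 3.34 ± 1.52 CPM in WT and 1.09 ± 0.305 CPM in KO (SD, n = 3), with a log2 fold change of -1.61 ± 0.42 (SE, edgeR adjusted p = 0.183, DESeq2 0.0376). Without WT 1 the log2 fold change was -1.17. Of the 6 DESeq2 fits without 1 library, 1 called Osm. WT 1 also had the highest summed neutrophil markers, 451 CPM against 153 and 213 CPM in WT 2 and WT 3. Those sums were 81.2, 68.5 and 61.9 CPM in KO 1, KO 2 and KO 3, and all 8 neutrophil markers had a lower mean in KO, with Ngp at 0 counts in KO 2 and KO 3. Of the 8, 6 had every KO library below every WT library, against 10.2% of all genes, whereas Ly6g and Csf3r overlapped between the groups. Ly6g was the largest part of each KO sum, with 35.7, 53.7 and 53.2 CPM in KO 1, KO 2 and KO 3 and 50.5 CPM in WT 2. All 8 macrophage markers also had a lower mean in KO, although their sums overlapped (260 to 678 CPM in KO, 561 to 969 CPM in WT). The part of these cells in the Osm difference was not tested, and in whole colon fewer cells of a type and less RNA per cell cannot be told apart.

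Among the cytokine genes, Il6, Il11 and Lif each had a RefSeq promoter window with TGANTCA (the promoter of Osm was not analysed here), a form of the site bound by AP-1 (Fos and Jun proteins), which is induced by injury and inflammatory signals. These 3 windows are shown because they held the motif, and its part in the differences was not tested. Each holds the 250 bases before a transcript start, and the capitals mark the match, which lies 249 bases before the start in Il6, 98 in Il11 and 228 in Lif.
Il6, chr5:30012864-30013113, plus strand: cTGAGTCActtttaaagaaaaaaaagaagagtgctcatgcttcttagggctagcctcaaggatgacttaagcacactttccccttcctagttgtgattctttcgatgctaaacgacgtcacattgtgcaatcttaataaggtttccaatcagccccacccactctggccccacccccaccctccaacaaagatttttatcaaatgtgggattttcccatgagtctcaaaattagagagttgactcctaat
Il11, chr7:4778142-4778391, minus strand: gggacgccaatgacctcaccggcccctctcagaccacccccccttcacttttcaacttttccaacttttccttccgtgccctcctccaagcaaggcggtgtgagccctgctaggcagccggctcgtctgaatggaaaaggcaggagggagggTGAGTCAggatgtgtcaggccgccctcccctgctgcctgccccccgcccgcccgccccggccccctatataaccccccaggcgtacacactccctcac
Lif, chr11:4257318-4257567, plus strand: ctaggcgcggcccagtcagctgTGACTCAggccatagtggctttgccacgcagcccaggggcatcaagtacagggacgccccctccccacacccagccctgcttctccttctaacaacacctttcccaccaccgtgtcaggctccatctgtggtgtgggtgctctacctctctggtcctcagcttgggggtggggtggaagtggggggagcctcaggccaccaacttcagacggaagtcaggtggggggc
Il11 has a second RefSeq window that held no match. The Il11 window shown lies inside the gene span of GENCODE M21 (4772373 to 4782859). The motif, searched on both strands, occurred in 6.75% of all windows and in none of those of the receptor genes or Socs3. The matches describe these letters only.

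With all libraries the receptor genes had log2 fold changes from -1.16 to -0.12 and the cytokine genes from -2.96 to -1.61. No receptor gene was called in edgeR. Some 95% intervals overlapped, such as those of Osm (-2.57 to -0.64) and Osmr (-2.08 to -0.24). The order was not kept in every fit, and without WT 2 Lif stood at -0.83 and Osmr at -1.30. Il6st, the shared gp130 chain, had 230, 244 and 318 CPM in WT 1, WT 2 and WT 3 and 192, 157 and 99.0 CPM in KO 1, KO 2 and KO 3. The KO libraries lay below the WT libraries, with KO 3 lowest. The log2 fold change was -0.82 ± 0.25 (SE, edgeR adjusted p = 0.243, DESeq2 0.0536), and -0.60 without KO 3. At an unadjusted p below 0.05 edgeR had Il6st, Il6ra and Osmr lower.

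Il6ra, the IL-6 binding chain, found mainly on leukocytes and hepatocytes, had 17.0, 20.7 and 20.4 CPM in WT 1, WT 2 and WT 3 against 13.1, 10.9 and 7.997 CPM in KO 1, KO 2 and KO 3. The groups were separate. Its log2 fold change was -0.86 ± 0.22 (SE, edgeR adjusted p = 0.181), and DESeq2 called it lower (adjusted p = 0.0283), but of its fits without 1 library only the one without KO 1 did. Il6ra shares exon bases with the antisense gene Gm42809 in GENCODE M21, and counting by strand is not stated.

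Osmr, the oncostatin M receptor of stromal, endothelial and epithelial cells, had 30.9, 28.2 and 47.4 CPM in WT 1, WT 2 and WT 3 and 21.6, 19.1 and 6.98 CPM in KO 1, KO 2 and KO 3. WT 3 was highest and KO 3 lowest, as for the fibroblast and endothelial marker sums. KO minus WT was -1.16 ± 0.40 on the log2 scale (SE, edgeR adjusted p = 0.293), and -0.80 without KO 3. Lifr, its neighbour on chromosome 15 and the LIF receptor, was the member whose groups overlapped, with 13.8, 15.7 and 29.9 CPM in WT 1, WT 2 and WT 3 and 15.9, 11.96 and 6.06 CPM in KO 1, KO 2 and KO 3. Its log2 fold change was -0.80 ± 0.40 (SE, edgeR adjusted p = 0.442), -0.50 without KO 3 and -0.38 without WT 3, and it passed in no alternative run. The part of stromal and endothelial content in the Osmr and Lifr values was not tested.

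Il11ra1, the IL-11 binding chain, was close to level across the 6 libraries. It had 30.8, 29.4 and 30.6 CPM in WT 1, WT 2 and WT 3 and 28.4, 27.9 and 27.3 CPM in KO 1, KO 2 and KO 3. KO was 8.01% lower in mean, and the 95% interval of the log2 fold change ran from -0.44 to 0.20 (edgeR adjusted p = 0.756). That interval lies above the whole interval of its ligand Il11. Il11ra1 was level in KO 3 too, where fibroblast markers were low. The part of cell content in the Il11ra1 values was not tested. Its near-identical copy Il11ra2 had at most 3 counts in any library, and how reads that match both copies were counted is not stated. Il11ra1 also shares exon bases with the antisense gene Ccl27a.

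**Figure D2:**
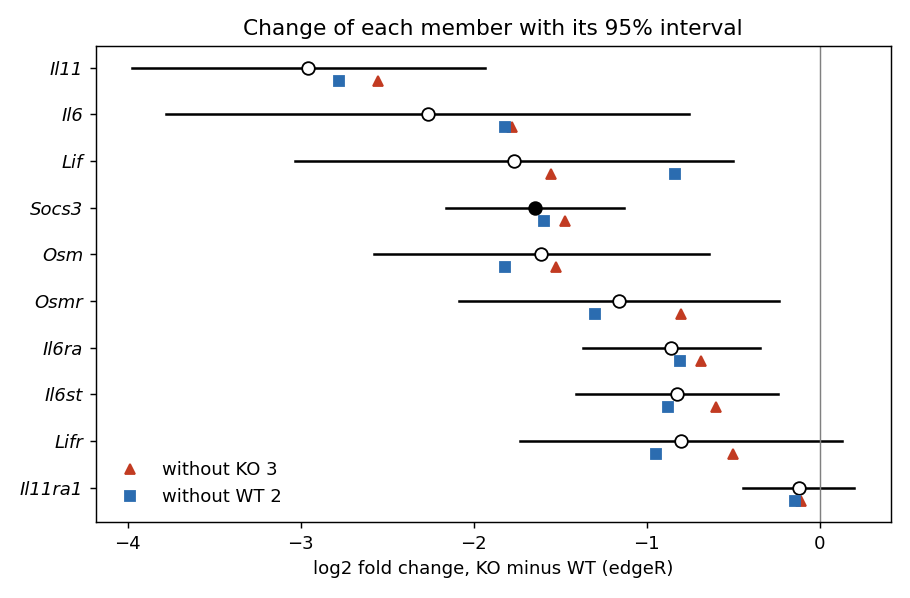
edgeR log2 fold change of each member (circles, KO minus WT; filled where the adjusted p is below 0.05) with its 95% interval, and the value without KO 3 (triangles) or without WT 2 (squares). The intervals of Il11 (-3.98 to -1.93) and Il11ra1 (-0.44 to 0.20) are far apart, Lif moves to -0.83 without WT 2, and every point stays below 0.

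Levels of different genes were compared in TPM, a unit that allows for transcript length. In WT, Socs3 (92.7 ± 10.8 TPM, SD, n = 3) and Il6st (80.7 ± 15.4 TPM) stood highest, with ranges that overlapped. Il11 (33.7 ± 8.44 TPM) and Il11ra1 (28.5 ± 0.445 TPM) came next, again with overlapping ranges, and Osmr followed at 12.1 ± 3.35 TPM. Lif, Il6ra, Il6 and Lifr lay between 9.34 and 5.92 TPM in mean, and Osm was lowest at 2.70 ± 1.22 TPM. The ranges of each neighbouring pair from Osmr down to Osm overlapped. Il11 was thus the most abundant cytokine RNA of the family in WT, in every one of the 3 libraries. In KO the order was Il6st (43.4 ± 15.7 TPM), Socs3 (28.7 ± 9.54 TPM) and Il11ra1 (25.4 ± 2.68 TPM), whose neighbouring ranges overlapped, and all other members averaged 5.26 TPM or less. Among those, Osmr (5.26 ± 2.77 TPM) and Il11 (4.18 ± 2.34 TPM) overlapped in range.

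Ratios of TPM within a library do not depend on how libraries are scaled to one another, and 6 pairs were formed after the values had been seen. Il11 RNA per Il11ra1 RNA was 1.01, 1.53 and 1.01 in WT 1, WT 2 and WT 3 and 0.210, 0.203 and 0.0662 in KO 1, KO 2 and KO 3. Ligand and receptor RNA were thus about level in WT, while the ligand was the scarcer in each KO library. Socs3 per Stat3, the gene of the factor that induces it, was 0.838, 0.810 and 0.635 in WT 1, WT 2 and WT 3 and 0.365, 0.300 and 0.326 in KO 1, KO 2 and KO 3. Socs3 per Il6st was 1.396, 1.35 and 0.819 in WT and 0.685, 0.583 and 0.749 in KO, with WT 3 close to KO 3. These 3 ratios did not overlap between groups, and KO 3 did not stand apart in Socs3 per Stat3. For each, an exact permutation test (two-sided) gave p = 0.1, the smallest possible here, and 0.2 after adjustment over the 6 pairs.

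The other 3 pairs overlapped between the groups. Osm per Osmr averaged 0.238 ± 0.137 in WT and 0.201 ± 0.118 in KO (SD, n = 3, exact permutation p = 0.7), and KO 3, at 0.335, was the highest KO library. Lif per Lifr was 1.81 ± 1.73 in WT and 1.002 ± 0.473 in KO (exact permutation p = 0.7). Il6 per Il6ra was 0.912 ± 0.383 and 0.405 ± 0.271 (exact permutation p = 0.2).

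**Figure D3:**
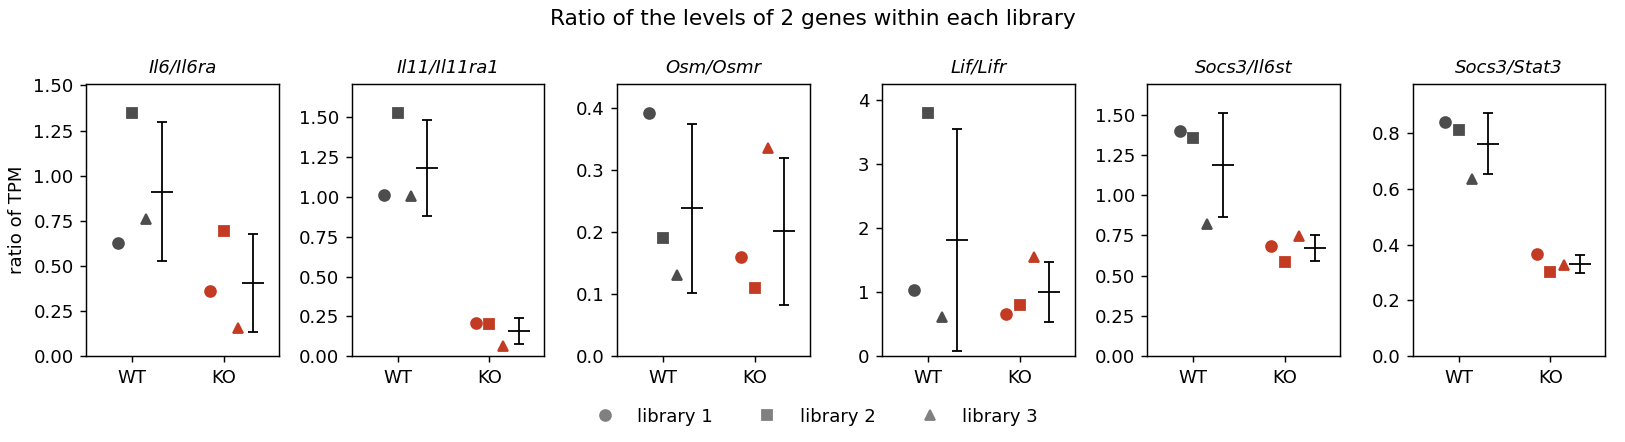
Ratio of the deposited TPM of 2 genes within each library, on axes that start at 0, with the group mean and SD beside the points. The KO libraries lie below the WT libraries for Il11/Il11ra1 (0.0662 to 0.210 against 1.01 to 1.53), Socs3/Il6st and Socs3/Stat3, and overlap with them for the other 3 pairs.

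Genes that carry the signal between receptor and Socs3 showed small differences. Of 8 transducer genes edgeR and DESeq2 each called 0. At an unadjusted p below 0.05 in edgeR 1, Stat3, was lower, against 7.85% of all genes. Stat3 had 281, 290 and 304 CPM in WT 1, WT 2 and WT 3 and 260, 212 and 164 CPM in KO 1, KO 2 and KO 3, a log2 fold change of -0.46 ± 0.19 (SE, edgeR adjusted p = 0.372). Stat5b stood at -0.41 and the kinase gene Tyk2 at -0.24, while Jak1 (-0.06), Jak2 (0.04) and the phosphatase gene Ptpn11 (-0.01) were near 0. The list's median was -0.14.

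Other feedback inhibitors of JAK-STAT signalling did not share the Socs3 difference in size. Of 7 genes both tools called 0 and edgeR had 0 at an unadjusted p below 0.05, with a median log2 fold change of -0.01. Socs1, an inhibitor induced chiefly by interferons, averaged 6.65 ± 3.16 CPM in WT and 7.07 ± 2.93 CPM in KO (SD, n = 3), and Cish, a STAT5 target, 12.3 ± 3.48 and 11.3 ± 2.61 CPM. The 3 with the smallest p were Socs2 (0.22), Ptpn6 (-0.14) and Cish (-0.12). The 4 genes of sheddases that release the IL-6 receptor from the cell surface, and of their regulators, gave 0 calls in both tools and 0 at an unadjusted p below 0.05. Rhbdf1 stood at -0.31, the sheddase genes Adam10 at -0.11 and Adam17 at -0.03, and Rhbdf2 at 0.08.

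Among the other cytokines that use gp130, Il27 was too low to test and the 5 others gave 0 calls in edgeR (0 also at an unadjusted p below 0.05) and in DESeq2. Ebi3, a subunit of IL-27, stood at -0.56 ± 0.42 (SE) and Clcf1 at -0.46 ± 0.48, both at mean levels below 2.5 CPM. Of 4 other receptor genes 2 were tested and neither was called by edgeR or DESeq2. Cntfr, the receptor of ciliary neurotrophic factor, was lower at an unadjusted p below 0.05 in edgeR (-1.10 ± 0.36, adjusted p = 0.263), and Il27ra stood at -0.26. Il31ra, whose chain pairs with that of Osmr, was below the filter, as was Il11ra2.

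Known STAT3 target genes were lower in part. Of 18, edgeR called 0 and had 13 lower and 1 higher at an unadjusted p below 0.05, and DESeq2 called 10 lower and 0 higher. Over all genes tested, edgeR had 7.85% lower and 753 of 14553 higher at that p. DESeq2 called 2.76% of all genes lower. The list's median log2 fold change was -0.80. The 3 with the smallest p were Saa3 (-3.05 ± 0.52, SE, edgeR adjusted p = 0.0720), an acute-phase protein, Lcn2 (-2.999 ± 0.56, 0.0848), which binds bacterial siderophores, and Timp1 (-1.76 ± 0.43, 0.163), a protease inhibitor. Saa3 had 659, 222 and 188 CPM in WT 1, WT 2 and WT 3 and 60.3, 39.3 and 29.4 CPM in KO 1, KO 2 and KO 3. The other 7 that DESeq2 called were Cebpd, Pim1, Il4ra, Lrg1, Cebpb, Reg3g and Reg3b. Pim1, a kinase gene, averaged 50.5 ± 7.66 CPM in WT and 24.8 ± 7.91 CPM in KO. Bcl3 and Mcl1 stood at 0.06 and -0.03, and Ccnd1, a cell cycle gene, had a higher mean in KO (143 ± 20.5 against 95.5 ± 21.3 CPM, edgeR adjusted p = 0.285). The DESeq2 count was 3 when KO 2 or WT 2 was left out, 4 when WT 1 was, 6 when WT 3 was and 9 when KO 1 or KO 3 was. All 8 neutrophil markers also had a lower mean in KO (summed 61.9 to 81.2 CPM in KO and 153 to 451 CPM in WT). Of the WT libraries, WT 1 had the highest neutrophil sum and the highest Saa3 and Lcn2, but the lowest Lrg1. The part of neutrophils in the values of the list was not tested. Several list members answer to other pathways as well, and values of this list had been reported from these libraries before it was drawn up, so its direction is not independent evidence.

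Cytokines known to induce Il6, Il11 or Lif were also compared. Of 6, edgeR tested 4 and called 0, with 3 lower at an unadjusted p below 0.05, and DESeq2 called 2 lower. The shares of all genes were 7.85% lower at that p in edgeR and 2.76% called lower by DESeq2. Il1b had 51.5, 46.6 and 31.7 CPM in WT 1, WT 2 and WT 3 and 13.2, 16.2 and 4.88 CPM in KO 1, KO 2 and KO 3 (-1.92 ± 0.41, SE, edgeR adjusted p = 0.116, DESeq2 9.68e-05). Il1a averaged 4.08 ± 1.68 CPM in WT and 0.580 ± 0.279 CPM in KO (-2.81 ± 0.51, SE, edgeR adjusted p = 0.0821). Both encode interleukin-1 ligands, and their groups did not overlap. Tgfb1 stood at -0.63 ± 0.27 and Tnf at -0.82 ± 0.46 (SE), with overlapping groups. Il17a and Il22 were below the filter.

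**Figure D4:**
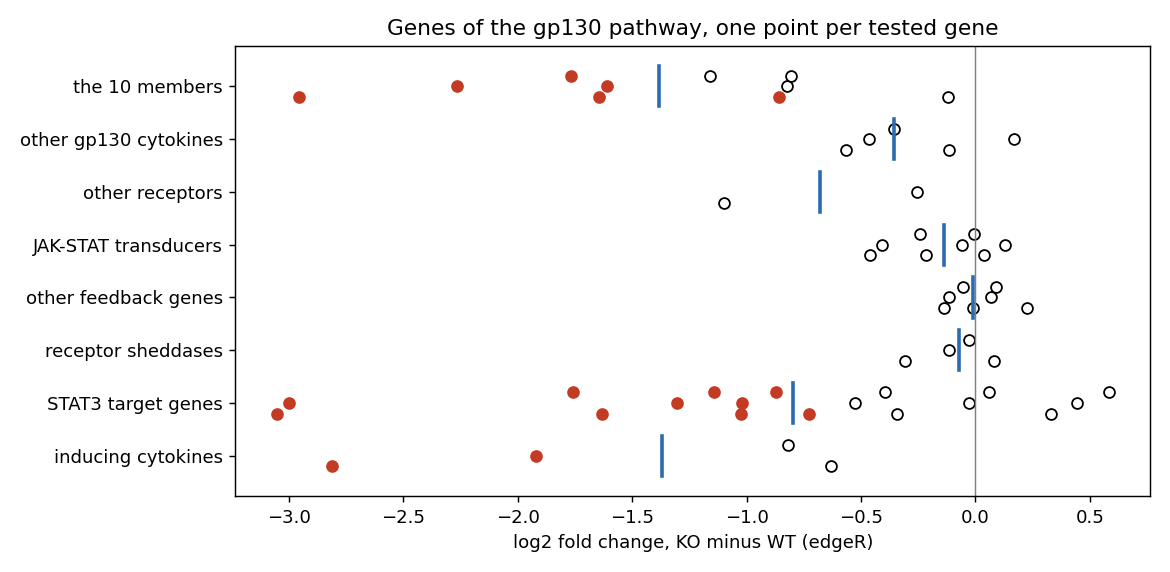
edgeR log2 fold change (KO minus WT) of each tested gene, 1 point per gene, by role, with list medians as vertical bars and genes that DESeq2 called at an adjusted p below 0.05 filled. Filled points appear among the 10 members (6), the STAT3 target genes (10) and the inducing cytokines (2), and not among transducers, sheddases or the other feedback genes, whose medians lie at -0.14, -0.07 and -0.01. DESeq2 called 2.76% of all genes lower.

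The genes whose profiles were most like those of Socs3 and Il11 were found by the root mean square difference of log2 CPM over the 6 libraries, each gene centred on its own mean, among 14135 genes. Nearest to Socs3 were Rasl11a (0.139), Ly6c1 (0.146), Ntng2 (0.172), Nfil3 (0.180) and Cd300lf (0.188). Ly6c1, a surface protein of endothelium and some T cells, was itself called lower by edgeR (-1.68, adjusted p = 0.0287), while Nfil3, a transcription factor gene, was just short of it (-1.55, adjusted p = 0.0525). Nearest to Il11 was Cemip, a hyaluronan-degrading protein gene, at 0.155, with means of 81.6 CPM in WT and 11.3 CPM in KO. Next came the neutrophil chemokine gene Cxcl1 (0.338), Zbtb16 (0.370), Slc10a6 (0.400) and the endothelial adhesion gene Selp (0.405). With 6 libraries in 2 groups, likeness here largely means a similar difference between the groups.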

How the data were processed

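Per the labels' protocols, colon RNA was taken up in Trizol and made into libraries with a SMARTER mRNA-Seq kit. GRCm38, mm10 and mm39 stand in the submitters' processing notes with no role. No aligner, counting program or annotation release is named. The authors deposited whole-number read counts per gene and TPM values scaled to 1 total per library. Their deposited table also gives a log2 fold change, here the KO to WT ratio of mean TPM, and a false discovery rate, that is an adjusted p-value, with no tool named. In the authors' deposited table Socs3 has a log2 fold change of -1.69 (FDR 1.27e-08) and Il11 one of -3.01 (FDR 2.19e-10).

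Counts were tested as deposited with edgeR 4.0.16 (R 4.3.3, limma 3.58.1), using the quasi-likelihood F-test, TMM factors, the default expression filter by group and Benjamini-Hochberg adjustment over all 14553 genes tested. The common dispersion gave a biological coefficient of variation of 29.0%. Standard errors came from the F statistic and are approximate. CPM values are scaled by the TMM factors, and permutation tests of single genes used log2(CPM + 0.1). DESeq2 1.42.0 was the alternative tool. The edgeR fit was tested on simulated data. It called 19.4% of the genes given a log2 change of 1, 79.1% at 2 and 100% at 3. A gene that edgeR did not call is therefore not shown to be unchanged. Positions are from GENCODE M21 (GRCm38), matched by Ensembl identifier. The genes named were Adamts4, the 10 members, the 3 smallest p in each list with every called gene and Stat3, and the 5 nearest profiles of Socs3 and Il11. One gene that this rule names is not reported here. Other genes named in the lists, such as Pim1, Bcl3 and Ccnd1, were chosen after their values were seen. The members and lists were chosen with earlier results of these data known. Alternatives were other scaling factors, no filter, DESeq2, the replicate number as a block and leaving out each library.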

Additional observations from a re-analysis of the deposited data

How the results depend on the processing

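Directions of all 10 members were below 0 in all 17 alternatives to the reported fit, while the number of calls moved. With median-ratio factors edgeR called 0 members lower, 9 genes lower and 0 higher in all. With upper-quartile factors it called 2 members (Il11 and Socs3) and 38 genes lower. With no count filter it called 2 members, 66 genes lower and 3 higher, and 1 STAT3 target gene. DESeq2 called 6 members, 431 genes lower and 106 higher, and 10 STAT3 target genes, against 1 member, 22 and 1 genes and 0 targets in edgeR. Leaving out 1 library, edgeR called 0 to 1 members, 1 to 29 genes lower, 0 to 2 higher and 0 to 1 STAT3 target genes. DESeq2 without 1 library, an alternative chosen after seeing the data, called 8, 3, 2, 4, 2 and 3 members without KO 1, KO 2, KO 3, WT 1, WT 2 and WT 3. In the same order it called 762, 286, 372, 268, 232 and 274 genes lower, 228, 112, 112, 55, 48 and 110 higher, and 9, 3, 9, 4, 3 and 6 STAT3 target genes. The cause of these moves was not tested. Il11 and Socs3 were the members called in all 6 of those DESeq2 fits.

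The replicate number as a block gave 2 members called lower (Il11 and Socs3), 78 genes lower and 3 higher, and 2 STAT3 target genes. The labels give no shared animal, litter or day for a number, so the block was kept as an alternative only. Deviations from the group mean had correlations across genes of -0.419, -0.15 and -0.429 for same-numbered libraries. Those of differently numbered libraries were 0.026 to 0.394. Deviations within a group of 3 are tied to one another, so these values cannot exclude a shared litter or day.

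Il6 and Osm had the lowest counts of the members, 3 to 117 and 14 to 119 per library. For Lifr, Il6st and Osmr, whose adjusted p missed the threshold in both tools with all libraries (DESeq2 called Il6st and Osmr without KO 1), neither a change nor its absence was shown.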
